A study of Mus musculus with 18 samples.

Results

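Connexins are the membrane proteins that build gap junctions. Rings of connexin subunits in adjoining cells dock into channels that pass ions and small metabolites, and the connexins a cell makes set which molecules and which partner cells its channels accept. In the mammary gland the milk-secreting alveolar cells and the contractile basal (myoepithelial) cells around them are both known to be coupled in this way, and different connexins are known to serve the 2 layers. The genes described here are 5 of the 31053 features of the count matrices, taken by name: Gja1, the connexin of myoepithelial cells and of many other tissues, Gjb2 and Gjb6, neighbouring genes whose loss causes hereditary deafness, Gjb1, the main connexin of liver cells, and Gjb5, a connexin of epidermis and placenta. They were followed in every epithelial class of 17 mammary libraries, with the alveolar cells and the basal cells across pregnancy and lactation as the main question. The choice was made with earlier results of these data known.

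The series holds 18 libraries made with droplet capture and 3′ counting of transcripts by unique molecular identifiers (UMIs). The replicated stages came from FVB/NJ mice: virgin adult glands at 10 weeks (libraries A10, P7 and D12), pregnancy day 12.5 (H and G), pregnancy day 18.5 (F4 and B4) and lactation day 10 (F11 and D6). Single libraries came from FVB/NJ glands after involution (labelled 3 weeks post birth), from C57BL/6 glands at embryonic day 18.5, postnatal day 5, 2.5 weeks (pre-puberty), 5 weeks (terminal end buds, TEBs, and ducts dissected apart) and 10 weeks, and from SWISS glands at 10 weeks, and the remaining library was E18.5 skin. The study's text counts the weeks of the post-involution stage from weaning instead, and its figures for the length of lactation vary, so the ages used here are those of the labels. The labels give no treatment. By the study's methods the embryos carried an Lgr5-GFP allele and the 5-week mice an E-cadherin-GFP allele used to guide dissection, cells were depleted of blood and endothelial cells and sorted on CD24 and CD29, mice were pooled within a library, and adult mice were not staged for the oestrous cycle. The study's methods state that FVB/NJ adult and post-involution glands were processed at the same time, without naming which adult library. No source used here ties the other FVB/NJ stages to a run, so stage and preparation cannot be told apart. Replicates are separate libraries, and p-values measure the spread between libraries. Adult P7 stands apart, with cell barcodes of 14 bases where the others have 16 and the lowest median of all UMIs in the series (2498 per cell). Outside the milk genes, the scale used below, the median was lower in lactation F11, at 1799 against 2484 in P7. P7 also had the highest FVB/NJ adult values of Gja1 in basal cells and of Gjb2 in LP cells. What its barcodes or depth add to them was not tested.

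Totals ran from 9920346 to 93234616 UMIs per library, and filters kept 132599 of 149371 barcodes, of which 123574 were in the mammary libraries. Among the 17 libraries with 16-base barcodes no pair shared more than 2.41% of the barcodes of the smaller one, and P7 could not be checked in this way. Cells were assigned to basal, luminal progenitor and alveolar (LP/alveolar) or mature luminal (ML) classes on marker genes that hold no connexin, which placed 92323 cells and left 20.2% of the mammary cells in no class. LP cells of the virgin gland and alveolar cells of pregnancy and lactation share one class, so a different mix of states within it and a different level per cell cannot be told apart. Levels are UMIs per 1000000 UMIs of the class in that library outside 8 milk genes (CPM), because milk transcripts took 72.0% and 69.5% of all UMIs in lactation F11 and D6. In FVB/NJ adults the milk share was 0.046 to 1.03%, and it was 8.07 and 10.1% at day 12.5 and 26.3 and 27.4% at day 18.5. In lactation F11 the median cell had 777 genes, the lowest of the 18 libraries. Since 3′ counts do not compare different genes, each gene is compared only with itself.

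Gja1 (ENSMUSG00000050953, chr10:56377300-56390419 on GRCm38) was a gene of the basal layer at the 4 replicated FVB/NJ stages. In the virgin adult its basal level was 165 CPM in A10, 263 in P7 and 191 in D12, with a mean of 207 ± 50.7 (SD, n = 3). It was 114 in both libraries at day 12.5, 134 and 212 at day 18.5, and 140.3 and 239 in lactation. In the LP/alveolar cells of the same libraries it lay between 6.63 and 15.1 CPM, so no LP/alveolar sum of a library came near a basal one. Clusters made within libraries were less far apart. LP/alveolar clusters reached 51.9 CPM in F4 (417 cells) and 72.4 in B4 (55 cells), where the lowest basal clusters had 93.0 and 146. The ML cells of the adult held 12.4, 2.96 and 7.73 CPM, and an ML cluster of 159 cells in A10 had 73.0.

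Within libraries the difference was tested with the library as a block. LP/alveolar cells were below basal cells by a log2 difference of -4.19 (SE 0.35, edgeR adjusted p = 8.05e-09) in the adult, -3.79 at day 12.5 (adjusted p = 9.75e-08), -4.02 at day 18.5 (adjusted p = 3.98e-08) and -4.02 in lactation (adjusted p = 3.23e-07). The ML cells of the adult were below basal cells by -4.46 (adjusted p = 1.41e-09). Such differences are common between these classes: 39.1% of genes tested were called between adult LP/alveolar and basal cells, 47.4% at day 12.5, 56.6% at day 18.5, 35.4% in lactation and 52.1% between adult ML and basal cells. Over the 16 libraries with both classes, the Gja1 level in LP/alveolar cells was 2.88 to 17.6% of the basal one. Beside it, the summed level of 9 basal markers in LP/alveolar cells was 0.40 to 6.04% of that in basal cells. These markers also assigned the cells, so the gate itself keeps them low in LP/alveolar cells. For Gja1 the range depended on the class. With classes from clusters, postnatal day 5 lay outside it, with 51.2 CPM of Gja1 in LP and 103 in basal cells. The part of basal RNA in the LP/alveolar value was not tested.

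**Figure D1:**
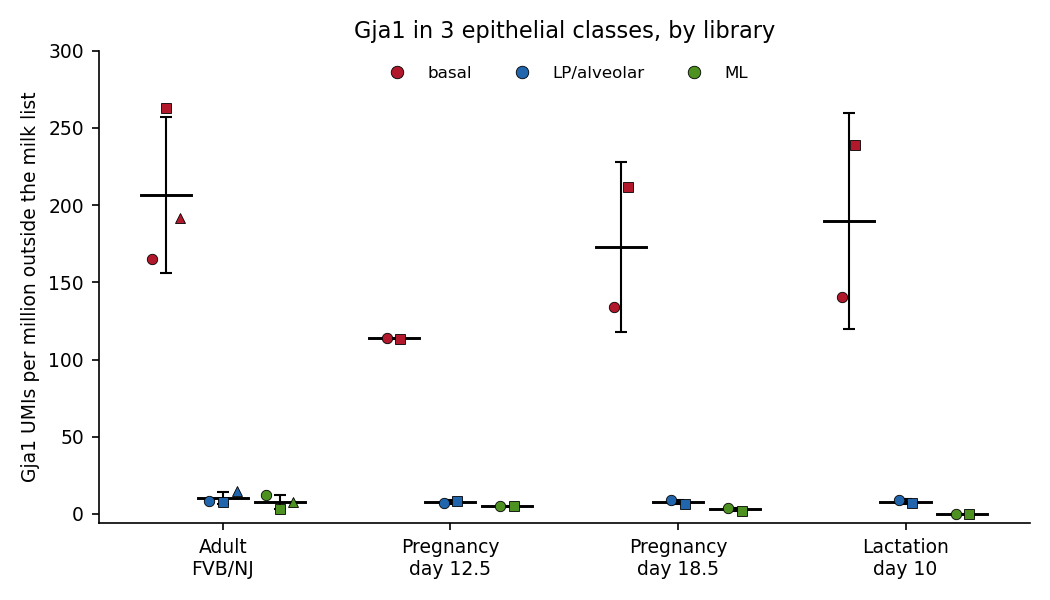
Gja1 in the 3 epithelial classes of the FVB/NJ libraries, in CPM outside the milk genes on a linear axis, with a point for each library. The basal points lie between 114 and 263 CPM, and every LP/alveolar and ML point lies at or below 15.1 CPM.

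Across the reproductive cycle no difference in the basal Gja1 level passed the test. The order of the means was adult, lactation (190 ± 69.8, n = 2), day 18.5 (173 ± 55.0, n = 2) and day 12.5 (114 ± 0.12, n = 2), and the libraries of neighbours in this order overlapped except for day 18.5 and day 12.5. Day 12.5 stood below the adult in both of its libraries, with a log2 difference of -0.74 (SE 0.37, edgeR adjusted p = 0.374). The other differences were 0.46 from day 12.5 to day 18.5 (adjusted p = 0.844), 0.18 from day 18.5 to lactation (adjusted p = 0.933) and -0.10 from adult to lactation (adjusted p = 0.917). What size of change 2 or 3 libraries could show was not tested. The basal libraries differed in depth: the median basal cell had 1093 UMIs outside the milk genes in lactation F11 and 4501 in adult D12. A Gja1 UMI was seen in 14.0% of basal cells in F11 and 54.3% in D12. With cells thinned to 1000 UMIs outside the milk genes the shares were 12.9% and 16.4%. Cells with fewer UMIs were left out of the thinned shares, and the F11 median of 1093 lies close to that limit.

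The C57BL/6 and SWISS groups had 1 library each and no test. Basal Gja1 was 183 CPM at postnatal day 5, 203 in pre-puberty, 134 in TEBs, 198 in ducts, 201 in the adult C57BL/6 gland and 160.0 in the adult SWISS gland, and 173 after involution in FVB/NJ. With classes from clusters it was 103 CPM at postnatal day 5 and 102 in TEBs, where 38.9% of the gated basal cells fell in basal clusters. At postnatal day 5 the gate left 1841 cells in no class. Clusters of that library given no class ran from 37.9 CPM of Gja1 (61 cells) to 663 (198 cells), and all of its cells together gave 244. Among the gated values the lowest was in the embryo, with 87.6 CPM in only 63 basal cells, none of which fell in a basal cluster. It was 70.2 CPM (95% Poisson interval 67.6 to 72.7) in the 4615 epithelial cells of the rudiment. That class was defined on luminal markers after the data were seen, because few embryonic cells passed the basal gate. Embryonic clusters given no class ran from 55.5 CPM (569 cells) to 190 (544 cells). In LP cells Gja1 was 13.8 CPM at postnatal day 5, 23.7 in TEBs, 22.6 in SWISS glands, 10.9 in ducts and 10.4 in the adult C57BL/6 gland. With classes from clusters these were 51.2, 22.9, 20.7, 10.4 and 9.26 CPM, so the place of postnatal day 5 in the order depended on the class.

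The promoter window of Gja1, the 250 bases upstream of its RefSeq start (chr10:56377050-56377299, plus strand, GRCm38.p6), is shown because it was the only window among the 5 genes with the AP-1 type motif TGANTCA, in capitals, which begins 19 bases upstream of the start. Searched on both strands, that motif was in 6.75% of 32851 such windows, and TTCNNNGAA, the STAT type motif, was in 7.02% and in none of the windows of the 5 genes. A match is a description of the letters and says nothing of binding.
Gja1: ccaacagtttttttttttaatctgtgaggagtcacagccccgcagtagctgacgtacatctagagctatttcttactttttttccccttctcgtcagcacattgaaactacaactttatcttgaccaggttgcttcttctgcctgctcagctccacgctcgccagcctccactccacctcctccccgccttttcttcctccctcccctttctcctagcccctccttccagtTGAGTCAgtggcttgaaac

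Gjb2 (ENSMUSG00000046352, chr14:57098602-57104702) and Gjb6 (ENSMUSG00000040055, chr14:57123301-57133611) lie on the minus strand with 18598 bases between them, and both rose in LP/alveolar cells by mid-pregnancy. Their windows upstream of the start are printed because the pair moved together at this step (Gjb2 chr14:57104703-57104952 and Gjb6 chr14:57133612-57133861, minus strand, GRCm38.p6). Neither holds either motif, and all letters are in lower case.
Gjb2: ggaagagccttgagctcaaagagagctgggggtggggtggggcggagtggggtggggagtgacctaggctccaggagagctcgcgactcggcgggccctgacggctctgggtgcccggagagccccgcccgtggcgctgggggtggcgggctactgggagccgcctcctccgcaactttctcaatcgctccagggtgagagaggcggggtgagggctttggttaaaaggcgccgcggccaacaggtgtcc
Gjb6: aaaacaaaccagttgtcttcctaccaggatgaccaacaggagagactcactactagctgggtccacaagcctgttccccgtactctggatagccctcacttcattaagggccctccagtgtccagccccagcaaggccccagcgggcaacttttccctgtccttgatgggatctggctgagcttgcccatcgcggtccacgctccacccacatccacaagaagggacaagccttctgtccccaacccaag

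In LP/alveolar cells Gjb2 stood at 21.3, 41.4 and 10.8 CPM in the adult libraries A10, P7 and D12 (24.5 ± 15.5, n = 3). It stood at 213 and 219 CPM in both day 12.5 libraries (216 ± 4.19, n = 2) and at 140.1 and 201 CPM at day 18.5 (171 ± 43.2, n = 2). In lactation it was 24.2 CPM in F11 and 47.5 in D6 (35.9 ± 16.5, n = 2). All 4 pregnancy libraries lay above all adult and lactation libraries, and the adult and lactation libraries overlapped. From adult to day 12.5 Gjb2 rose by 3.24 on the log2 scale (SE 0.51, edgeR adjusted p = 0.00654), a call lost without H (adjusted p = 0.056) and without G (adjusted p = 0.0588). From day 12.5 to day 18.5 the difference was -0.23 (adjusted p = 0.889). From day 18.5 to lactation it was -2.07 (SE 0.56, adjusted p = 0.0695), which missed the threshold although the libraries did not overlap, and DESeq2 called it (adjusted p = 0.0123). Over 16 alternatives its adjusted p ran from 0.000573 to 0.338 and its log2 value from -2.67 to -1.66. Without P7 it was called (adjusted p = 0.027), as it was without D12 (0.0303). Lactation against adult gave 0.94 (adjusted p = 0.175), and without P7 it was called (1.39, adjusted p = 0.0422).

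Gjb6 was close to absent from LP cells of the virgin FVB/NJ gland, though not of the SWISS gland described below, and appeared in pregnancy. It had 1 UMI in each of A10 and P7 and none in D12, a mean of 0.20 ± 0.28 CPM, then 67.6 and 70.8 CPM at day 12.5 (69.2 ± 2.31, n = 2), 86.5 and 82.7 at day 18.5 (84.6 ± 2.65, n = 2) and 3.54 and 8.05 in lactation (5.80 ± 3.19, n = 2). The 4 stages did not overlap in any pair. From adult to day 12.5 it rose by 9.17 on the log2 scale (SE 0.63, adjusted p = 0.000197). Because the adult side held 2 UMIs, the pooled ratio of 661 had a 95% counting interval of 183 to 5456. From day 12.5 to day 18.5 the difference was 0.39 (adjusted p = 0.716), and from day 18.5 to lactation Gjb6 fell by 3.65 (SE 0.46, adjusted p = 0.00299). In lactation it remained above the adult, by a log2 value of 5.91 (adjusted p = 0.000457), with a pooled ratio of 62.7 (interval 17.1 to 522) on the same 2 adult UMIs.

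Gjb1 (ENSMUSG00000047797, chrX:101376376-101385629) followed another course and was high in the alveolar cells of lactation. Its level in LP/alveolar cells was 0.92 CPM in A10, 1.53 in P7 and 0 in D12, 0.34 and 0.32 in the day 12.5 libraries, 2.71 in F4 and 6.31 in B4 at day 18.5, and 82.8 in F11 and 88.0 in D6 in lactation. Both lactation libraries (85.4 ± 3.73, n = 2) lay above every other library of the series, of which the highest was B4. From day 12.5 to day 18.5 Gjb1 rose by 3.85 on the log2 scale (SE 0.67, adjusted p = 0.0393), a call lost when any of H, G, F4, B4, F11 or D6 was left out (adjusted p 0.0694 to 0.586). From day 18.5 to lactation it rose by 4.41 (SE 0.61, adjusted p = 0.0049), lost without F4 (3.90, adjusted p = 0.0872), and from adult to lactation by 7.03 (SE 0.65, adjusted p = 0.000173). The adult and day 12.5 levels, the lowest neighbours in the order, did not differ beyond the test (-1.23, adjusted p = 0.33).

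**Figure D2:**
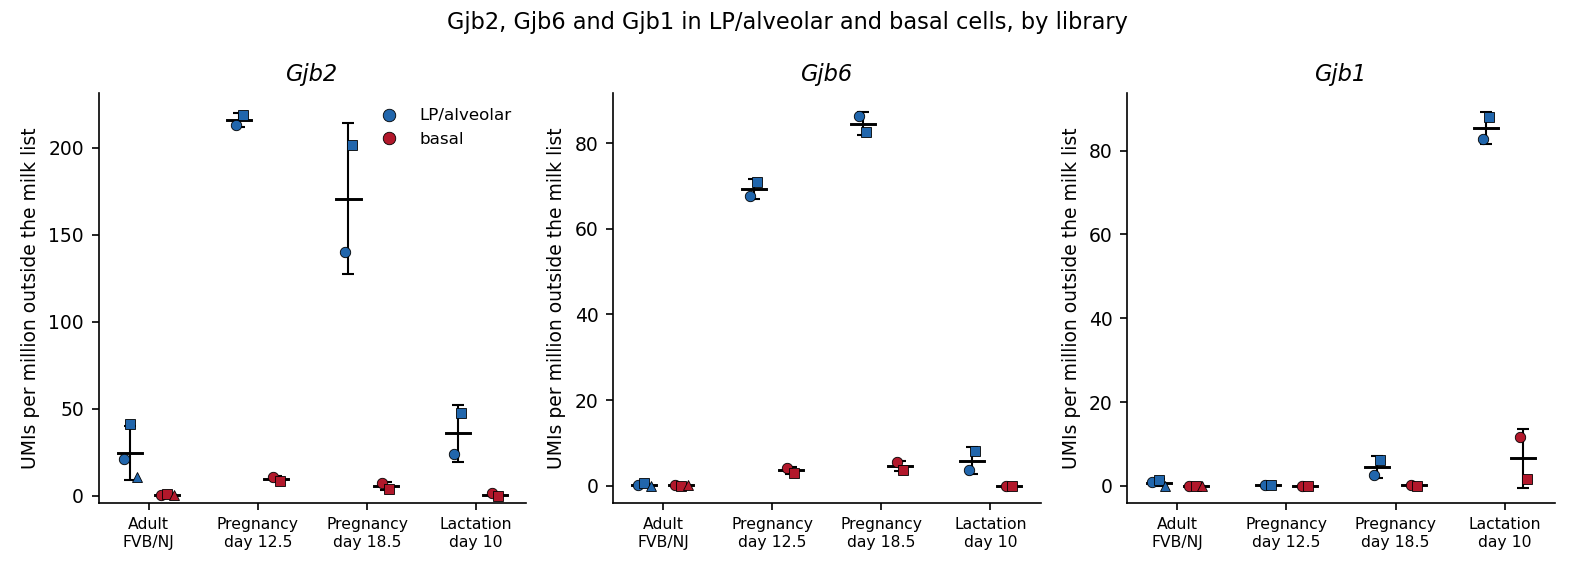
Gjb2, Gjb6 and Gjb1 in LP/alveolar (blue) and basal (red) cells of the FVB/NJ libraries, in CPM outside the milk genes on linear axes, with a marker for each library, a bar at the mean and an error bar of 1 SD. Gjb2 and Gjb6 are high in the 4 pregnancy libraries, at 140.1 to 219 and 67.6 to 86.5 CPM in LP/alveolar cells, and Gjb1 is high in the 2 lactation libraries, at 82.8 and 88.0 CPM.

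Over all genes, 11.5% of those tested in LP/alveolar cells were called from adult to day 12.5, 0.942% from day 12.5 to day 18.5, 4.72% from day 18.5 to lactation and 29.3% from adult to lactation. Of the 4 connexins of the set that passed the low-count filter, 2, 1, 2 and 2 were called in these comparisons. Gjb5 did not pass it. Gja1 was called in none of them, with LP/alveolar log2 differences of -0.41 (adjusted p = 0.461), 0.11 (adjusted p = 0.927), 0.24 (adjusted p = 0.805) and -0.07 (adjusted p = 0.909). The members were chosen with earlier results of these data known, so these counts, and those in basal cells below, do not test the set.

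In single cells, a Gjb2 UMI was found in 4.68 to 9.84% of adult LP cells, in 64.8% and 64.7% at day 12.5, in 37.2% and 47.5% at day 18.5, and in 5.37% and 17.1% in lactation. Cells were also thinned to 1000 UMIs outside the milk genes, and those with fewer were left out. The thinned shares at day 12.5 were 17.8% and 19.3%, and those in lactation 2.40% and 4.50%. A Gjb6 UMI was found in 32.3% and 33.4% of cells at day 12.5 and in 0.85% and 3.24% in lactation. A Gjb1 UMI was found in 0.23% and 0.19% of cells at day 12.5, in 1.18% and 4.29% at day 18.5, and in 17.1% and 29.2% in lactation, or 8.95% and 8.69% after thinning. In lactation D6 none of 363 fibroblasts (median 2148 UMIs outside the milk genes) and none of 651 endothelial cells (median 2620) had a Gjb1 UMI, beside a median of 4142.5 in LP/alveolar cells. Counts of 0 allow up to 0.826% and 0.461% of such cells to have a UMI, and at these depths they do not limit the share that expresses the gene. In lactation F11 it was 1 of 57 fibroblasts and 1 of 141 endothelial cells. With classes from clusters Gjb1 was also counted outside the epithelium of D6, at 3.42 CPM in 471 and 46.4 CPM in 47 cells of the 2 endothelial clusters and at 12.2 CPM in 226 and 0 in 242 cells of the 2 fibroblast clusters.

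Alveolar cells were not uniform in late pregnancy. Clusters made within each library without the connexins split the B4 cells at day 18.5 by these genes. In a cluster of 552 cells Gjb2 was 372 CPM, Gjb6 155 and Gjb1 0.69, and in another of 430 cells they were 331, 122 and 0.24 CPM. In a cluster of 725 cells with Saa2, Atp2b2 and Slc34a2 among its leading genes, the last a phosphate transporter of secretory epithelium, Gjb2 was 58.0 CPM, Gjb6 27.7 and Gjb1 14.3. A cluster of 305 cells led by G0s2, with the milk genes Csn1s2b and Wap among its leading genes, had 50.1, 29.4 and 11.6 CPM. In B4 the 2 clusters with the most Gjb1 were those with the least Gjb2. In F4 the 2 LP/alveolar clusters with the least Gjb2, at 75.1 and 96.7 CPM, did not follow this order and had 0 and 0.89 CPM of Gjb1. Among the other F4 clusters of the class, those with 112 to 132 CPM of Gjb2 had 3.69 to 6.25 CPM of Gjb1. Those with 160 to 172 CPM of Gjb2 had 0.50 to 1.70. The F4 clusters spanned a smaller range, with Gjb1 at 0 to 6.25 CPM and Gjb2 at 75.1 to 172.

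In B4 cells a Gjb2 UMI was found in 28.7% of cells with a Gjb1 UMI and in 47.5% of all LP/alveolar cells, whereas a Gjb6 UMI was found in 49.8% of cells with a Gjb2 UMI and in 30.7% of all. These shares move with the depth of each cell and are a description.

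In lactation Gjb1 was spread over most alveolar clusters. In F11 it was 112, 134 and 141 CPM in the 3 clusters with the most, 56.2 in another, 22.6 in a cluster of 778 cells led by Fcgbp and Spp1, and 0 in a cluster of 50 cells with Aldh1a3, a marker of LP cells, among its leading genes. In D6 it ran from 32.3 to 124 CPM, while Gjb2 in the same clusters ran from 19.7 to 73.6. There the 2 clusters with the most Gjb1, at 124 and 112 CPM, were those with the most Gjb2, at 57.7 and 73.6. At day 12.5 in H, Gjb2 and Gjb6 were 286 and 106 CPM in a cluster of 1526 cells with Lalba, Cidea and Wap among its leading genes. They were 73.6 and 7.79 in a cluster of 442 cells led by Aldh1a3 and Fcgbp, the lowest of that library's LP/alveolar clusters for both genes.

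**Figure D3:**
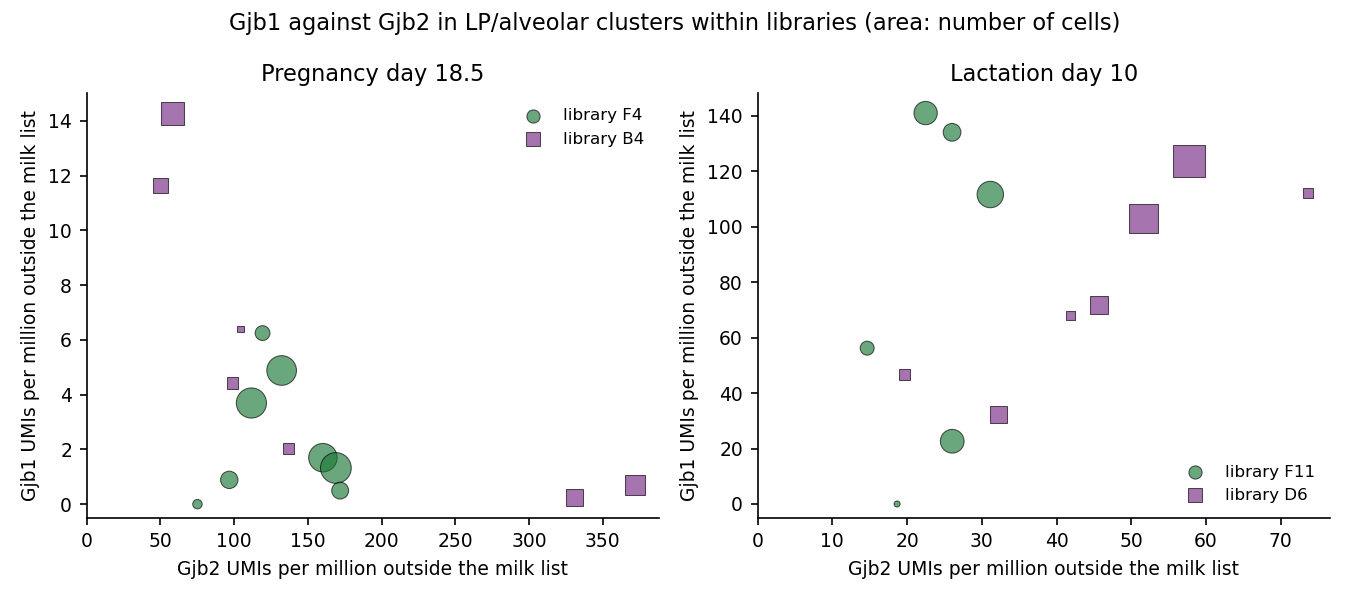
Gjb1 against Gjb2 in the LP/alveolar clusters made within pregnancy day 18.5 libraries (F4, B4) and lactation libraries (F11, D6), both in CPM outside the milk genes, with the area of a point set by its number of cells. The B4 clusters run from 372 CPM Gjb2 with 0.69 CPM Gjb1 to 50.1 CPM Gjb2 with 11.6 CPM Gjb1, and the lactation clusters reach 141 CPM Gjb1.

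Between classes, Gjb2 was higher in LP/alveolar cells at the 4 replicated FVB/NJ stages, above basal cells by a log2 difference of 5.53 in the adult (edgeR adjusted p = 1.12e-08), 4.59 at day 12.5 (6.5e-09), 5.31 at day 18.5 (1.65e-09) and 6.03 in lactation (5.21e-05). The lactation value rests on 1 basal UMI, with a pooled ratio of 51.6 and an interval of 9.24 to 2041. In the adult Gjb2 was lower in ML than in LP cells by a log2 difference of -4.61 (adjusted p = 3.03e-08), in a comparison in which 33.9% of genes were called. Gjb6 was above basal cells by 4.40 at day 12.5 (3.23e-09) and 4.63 at day 18.5 (1.41e-09), and did not differ by the test in the adult (-0.81, adjusted p = 0.608), where both classes were near 0. It was called lower in ML than basal cells of the adult (adjusted p = 0.0196), where ML cells had no UMI and basal cells 6, at least 2.62-fold lower, and this call was lost without A10 (0.213) and with classes from clusters (0.117). In lactation no basal cell had a Gjb6 UMI and the level was at least 2.84-fold higher in LP/alveolar cells (adjusted p = 0.00314), a call lost without D6 (adjusted p = 0.138).

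Gjb1 was above basal cells by 5.03 at day 18.5 (adjusted p = 2e-06), on 3 basal UMIs with a pooled ratio of 25.2 (interval 8.49 to 123), and by 4.16 in lactation (2.15e-06). It was also called in the adult (4.06, adjusted p = 0.00664) and at day 12.5 (3.32, adjusted p = 0.0165). Each of these rests on 1 basal UMI, with pooled ratios of 23.0 (3.53 to 966) and 13.6 (2.17 to 567), and the first was lost without A10 (adjusted p = 0.154) and the second with DESeq2 (0.051), without H (0.148) and without G (0.101). The change of the LP/alveolar to basal difference from adult to lactation was called for Gjb6 alone among the 4 genes (10.03, adjusted p = 0.031, in a comparison with 15.7% of genes called). With no Gjb6 UMI in basal cells of lactation the size of that value is no bound, and the call was lost without A10 (adjusted p = 0.182), F11 (0.057) or D6 (0.224) and in 4 of the other alternatives. The values were 0.17 for Gja1 (adjusted p = 0.899), 0.10 for Gjb1 (adjusted p = 0.96) and 0.50 for Gjb2 (adjusted p = 0.934).

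Basal cells also gave more Gjb2 and Gjb6 UMIs in mid-pregnancy. Basal Gjb2 was 0.26, 1.17 and 0.51 CPM in the adult (0.65 ± 0.47, n = 3) and 10.8 and 8.71 at day 12.5 (9.76 ± 1.49, n = 2), a rise of 4.36 on the log2 scale (SE 0.58, edgeR adjusted p = 0.00597). Basal Gjb6 was 0.26, 0 and 0.17 CPM and then 4.16 and 3.00, a rise of 4.13 (SE 0.65, adjusted p = 0.0125). These 2 were the basal calls among 3 tested genes of the set (Gjb1 and Gjb5 did not pass the low-count filter there), in a comparison with 2.87% of genes called, and without H both were lost (adjusted p = 0.0552 and 0.136), as was Gjb6 without G (0.0986). Beside them, basal cells at day 12.5 held 5.08% and 3.98% of the LP/alveolar Gjb2 level and 6.15% and 4.24% of the Gjb6 level. They held 5.11% and 4.40% of the summed level of 8 LP/alveolar markers. Those markers also assigned the cells, so the gate itself keeps them low in basal cells. Milk genes took 1.13% and 0.94% of all UMIs in basal cells and 14.5% and 15.5% in LP/alveolar cells, shares on another scale than the levels. In the adult the figures for Gjb2 and for the markers were 1.24 to 4.76% and 1.38 to 10.9%. The part of free or alveolar RNA in the basal Gjb2 and Gjb6 counts was not tested.

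No gene of the set was called in basal cells from day 12.5 to day 18.5, from day 18.5 to lactation or from adult to lactation. With classes from clusters Gjb1 was called higher in lactation than at day 18.5 (adjusted p = 0.018) and than in the adult (0.00162), and Gjb2 higher than in the adult (0.0136). The shares of all genes called in these comparisons were 0%, 0.862% and 3.07%. Where edgeR called none, DESeq2 called 190 genes, and 1228 genes passed 0.05 before adjustment with edgeR. In lactation basal cells held 1 Gjb2 UMI and none of Gjb6. Basal Gjb1 was 11.6 CPM in F11 and 1.65 in D6, that is 14.0% and 1.87% of the LP/alveolar level. The figures were 12.3% and 2.64% for the LP/alveolar markers, which also assigned the cells. Milk genes took 35.0% and 8.25% of all UMIs in basal cells and 76.6% and 77.8% in LP/alveolar cells. Being shares of all UMIs, they do not compare with levels outside the milk genes. With classes from clusters basal Gjb1 was 18.5 CPM in F11 (19 UMIs) and 6.84 in D6 (5 UMIs). At day 12.5 ML cells held 12.9 and 7.61 CPM of Gjb2, and in lactation none was counted in 111 and 65 ML cells. The lactation ML sums held 251646 and 125978 UMIs outside the milk genes, against 620363 and 788865 at day 12.5. At that size a count of 0 sets no limit well below the day 12.5 values, and a fall was not tested.

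Outside the FVB/NJ cycle each group had 1 library and no test. Gjb2 in LP cells was 1.45 CPM at postnatal day 5 (2 UMIs, 95% Poisson interval 0.18 to 5.23) and 2.32 in pre-puberty, or 5.53 and 2.0 with classes from clusters, so their order depended on the class. It was 35.0 in TEBs, 21.4 in ducts, 12.6 in the adult C57BL/6 gland and 44.8 in the adult SWISS gland. The adult FVB/NJ libraries, at 10.8 to 41.4 CPM, covered the duct, TEB and C57BL/6 values. After involution Gjb2 was 35.3 CPM, Gjb6 6.14 and Gjb1 0.37, where the adult FVB/NJ libraries had at most 0.51 CPM of Gjb6. Gjb6 was also counted in SWISS LP cells, at 3.47 CPM, and Gjb1 in TEB LP cells, at 2.96 CPM against 0.61 in ducts. At postnatal day 5 the gated basal cells had 102 CPM of Gjb2, but 370 of those 374 UMIs came from 25 of 393 cells that clustering placed outside the basal clusters, and 1.07 CPM remained within them. The gate left 1841 of the 3728 cells of that library in no class. Clusters of 215, 171 and 198 cells that were given no class had 177, 106 and 136 CPM of Gjb2. Their Gjb6 was 20.9, 12.6 and 23.0 CPM. The other clusters of that library given no class ran from 0 to 44.3 CPM of Gjb6. Those with the most, of 118 and 23 cells, had 43.8 and 44.3 CPM beside 24.7 and 5.53 CPM of Gjb2. Over all cells of the library Gjb2 was 34.3 CPM and Gjb6 8.89.

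**Figure D4:**
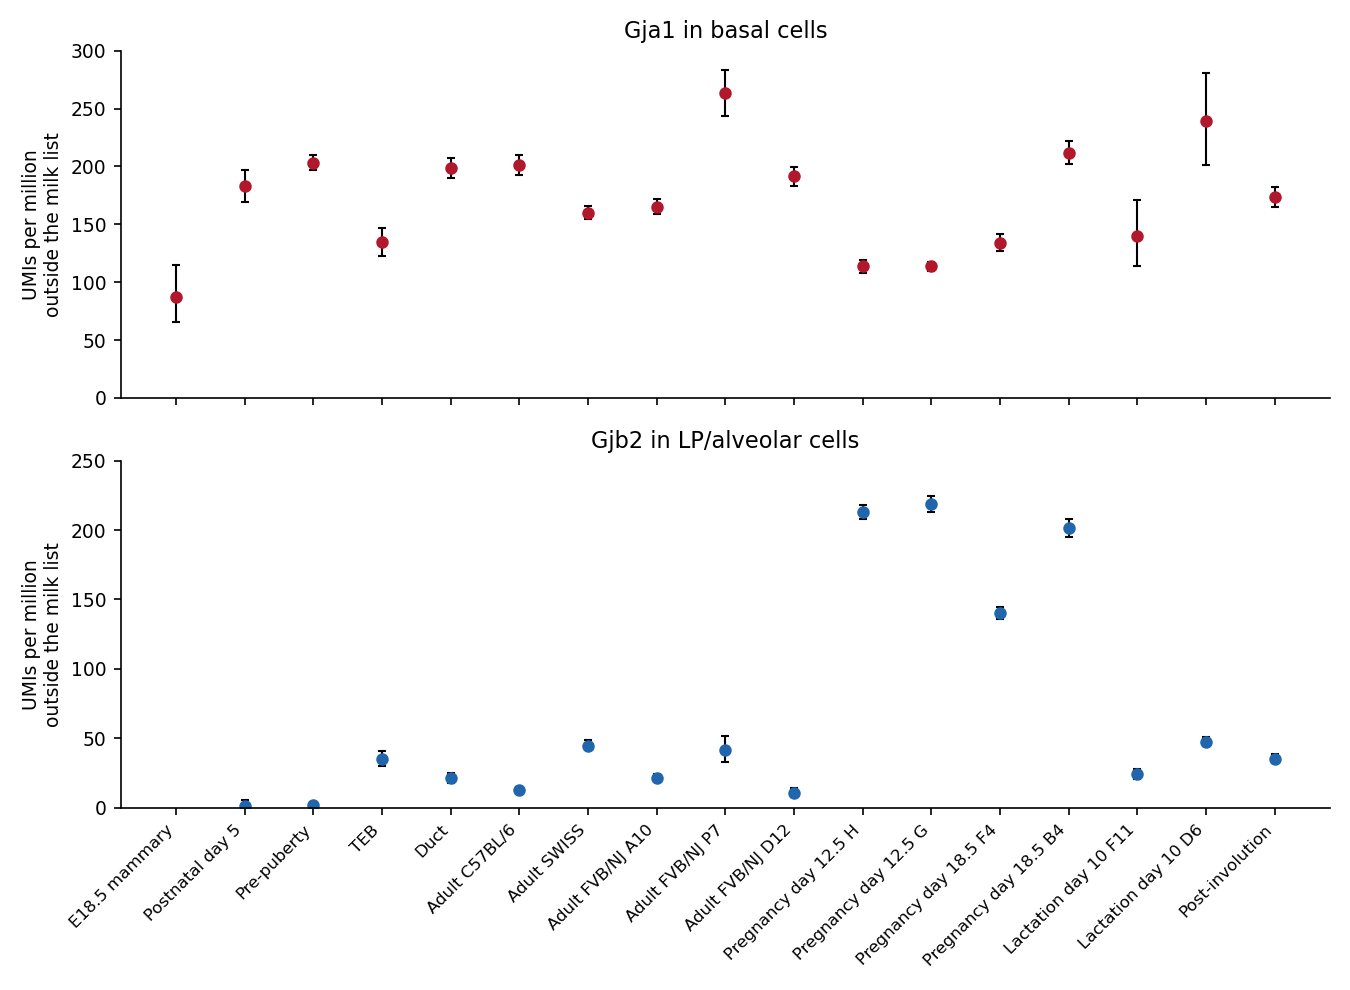
Gja1 in basal cells and Gjb2 in LP/alveolar cells of every mammary library, in CPM outside the milk genes, with exact 95% Poisson intervals that cover counting error only. Basal Gja1 runs from 87.6 CPM in the embryo to 263 in adult P7, and LP/alveolar Gjb2 from 1.45 CPM at postnatal day 5 (5.53 with classes from clusters) to 219 in a day 12.5 library.

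Gjb5 (ENSMUSG00000042357, chr4:127354809-127358164) was hardly used by the mammary epithelium. It was at most 0.11 CPM in LP/alveolar cells and 2.20 CPM in ML cells of any library. In basal cells of the FVB/NJ stages it was 0 to 1.20 CPM, with no UMI in lactation. A count of 0 in the pooled basal cells of lactation allows up to 2.31 CPM, so it shows no fall. The highest epithelial values were 5.49 CPM in TEB basal cells (19 UMIs) and 3.17 CPM in duct basal cells (33 UMIs). In cells gated as epidermal it was 21.3 CPM at postnatal day 5 (613 cells), 102 CPM in lactation D6 (29 cells, 11 UMIs) and 1.27 CPM in the E18.5 mammary library (481 cells, 5 UMIs).

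Of the connexin genes outside the set, a pair is described here. Gjc1, a connexin of smooth muscle, was higher in basal than LP cells of the adult, at means of 5.20 against 0.11 CPM in 3 libraries each (adjusted p = 2.75e-06). Gja4, a connexin of endothelium, was higher in LP/alveolar cells of lactation than of the adult (3.49, adjusted p = 0.0105, 2.11 ± 1.51 against 0.16 ± 0.14 CPM), and beside it the summed level of 5 endothelial markers in LP/alveolar cells was 6.0 to 12.8 CPM in the adult libraries and 26.2 and 37.7 CPM in lactation. The endothelial markers also assigned the cells. The part of endothelial RNA in the Gja4 value was not tested. The call was lost without F11 (adjusted p = 0.0737). Gja4 was also called from day 18.5 to lactation (3.01, adjusted p = 0.042), which held in 5 of 15 alternatives and was lost without any one of the pregnancy and lactation libraries (adjusted p 0.0662 to 0.282).

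Of the 3 pannexins, which form related membrane channels, Panx1 rose in LP/alveolar cells from adult to day 12.5 (1.82, adjusted p = 0.0227, 3.09 ± 1.58 to 10.51 ± 1.23 CPM), lost without H (0.189) or G (0.134), and was lower in basal cells in lactation than in the adult (-2.26, adjusted p = 0.0401, 23.1 ± 8.83 to 4.64 ± 0.43 CPM). The basal call was kept in 8 of 16 alternatives and lost without any one library but P7 and D12 (adjusted p 0.0622 to 0.263). Of 15 partners of gap junctions, scaffolds, cadherins, catenins and regulators that were all tested, 1, 0, 0 and 5 were called in the 4 LP/alveolar comparisons, where 11.5%, 0.942%, 4.72% and 29.3% of all genes were, and 0, 0, 0 and 1 in the basal ones, where 2.87%, 0%, 0.862% and 3.07% were. Cav1, the coat protein of caveolae, rose in LP/alveolar cells by 1.73 from adult to day 12.5 (adjusted p = 0.0198, lost without D12, H or G, adjusted p 0.0526 to 0.213), and in lactation it was above the adult by 2.23 in LP/alveolar cells (adjusted p = 0.00278) and by 2.20 in basal cells (adjusted p = 0.0126), where it went from 156 ± 49.9 to 705 ± 47.5 CPM and the call was lost without F11 (0.109) or D6 (0.0937). Cdh1, the epithelial cadherin, was lower in LP/alveolar cells in lactation than in the adult (-1.29, adjusted p = 0.0425, 99.1 ± 28.1 to 33.1 ± 7.56 CPM), which held in 5 of 16 alternatives and was lost without any one library but P7 (adjusted p 0.0582 to 0.222). Between adult classes 12 of the 15 partners were called, 3 higher in LP cells and 9 higher in basal cells, in a comparison with 39.1% of all genes called. Among them Tjp3, a tight junction scaffold, was 56.4 ± 21.1 CPM in LP and 1.67 ± 0.68 in basal cells (adjusted p = 4.65e-10), and Cdh2, the neural cadherin, 0.26 ± 0.44 and 11.1 ± 8.70 CPM (adjusted p = 1.62e-06). Both kept their side at the later stages, Tjp3 with log2 differences of 4.57, 4.79 and 4.04 and Cdh2 with -4.42, -5.02 and -5.65. The lactation value of Tjp3 rests on 2 basal UMIs, with a pooled ratio of 11.5 (interval 3.17 to 95.4), ran from 2.49 to 11.04 over 17 alternatives and was no longer called without D6 (adjusted p = 0.0681). Cav1 was below basal cells by -4.18, -4.40 and -4.14 at those stages and Cdh3, the placental cadherin, by -3.98 at day 18.5 and -5.27 in lactation. At day 12.5 mean Cav1 was 23.7 CPM in LP/alveolar and 449 CPM in basal cells. Beside it, LP/alveolar cells held 3.79% and 5.28% of the summed level that the basal markers, which also assigned the cells, had in basal cells. The part of basal or endothelial RNA in the LP/alveolar Cav1 values was not tested. Panx2, called lower in adult LP cells (adjusted p = 0.0365), had no UMI there and 0.54 ± 0.32 CPM in basal cells, at least 3.05-fold lower, and was lost in 4 of 17 alternatives, without A10 (0.308), without P7 (0.0778), with no low-count filter and with all 5 adult libraries. In adult ML cells Cav1 was above LP cells by 2.91 and Dbn1, an actin-binding partner of Gja1, by 2.52, whereas Nedd4, a ubiquitin ligase, was lower by a log2 difference of -0.81 (edgeR adjusted p = 5.43e-09, 2.50e-06 and 0.00051).

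The genes whose levels followed each connexin most closely were taken over 50 sums of a library and an epithelial class from 17 libraries, among 5499 genes with a mean of at least 20 CPM. The sums share libraries, and the correlations of log2(CPM + 5) are a description. For Gja1 they were Dpysl3 (Pearson r 0.97), Pltp (0.95), Selenom, Aebp1 and Col17a1 (each 0.95). For Gjb1 they were Wfdc17 (0.91), Slc39a8 (0.87), Slc34a2 (0.86), Cidea (0.82) and Elovl5 (0.80), the last a fatty acid elongase. For Gjb2 they were Car2 (0.85), a carbonic anhydrase, Plin2 (0.81), the coat protein of lipid droplets, Ogfrl1 (0.79), Pradc1 (0.77) and Rspo1 (0.77), a secreted Wnt agonist. For Gjb6 they were Fam20c (0.81), Gjb2 itself (0.80), Slc52a2 (0.80), Chrdl2 (0.79) and Rspo1 (0.78). The values for Gjb5, from Plek2 (0.72) to Clns1a (0.64), rest on few UMIs. Gjb1 and Gjb2 had an r of 0.26, and Gja1 had -0.28 with Gjb2.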

How the data were processed

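Each library was captured with the 10x Chromium 3′ kit. The authors aligned the reads with Cell Ranger to mm10 (version 3.1.0 in the submitters' notes, 3.0.2 in 16 matrix headers and 3.1.0 in 2) and deposited UMI counts per gene and cell. Cells passed the study's limits on genes, UMIs and mitochondrial share of each library, and no doublet caller was run beyond them. Cells were gated on fixed marker lists, with a lead of 1.5 over the next class, and summed per library and class where 20 or more cells were present, and 2.84% of gated epithelial cells lay near a limit of the gate. Counts outside 8 milk genes were scaled by TMM and tested with edgeR 4.0.16 (quasi-likelihood, filterByExpr, Benjamini-Hochberg over all genes, threshold 0.05) in R 4.3.3. LP/alveolar and basal fits used 9 FVB/NJ libraries, and the class fit added the library as a block. SE is the log2 change divided by the root of F. Scripts were tested on simulated data. Ratios on 1 to 3 UMIs, pooled over the libraries of a side, and shares carry exact 95% intervals, and counts of 0 a floor of 3 UMIs per group, all for counting error only. Alternatives were DESeq2 1.42.0, no TMM, milk genes kept, no low-count filter, cells with 1000 or more genes, a stricter gate (lead 2.5), classes from clusters (scanpy 1.11.5), all 5 adult libraries, and each library left out in turn. Members are always named, and other connexins, pannexins and partners where called with libraries that do not overlap, at most 5 per comparison by size. Some of the genes this rule names are not reported here. The members and lists were chosen with earlier results of these data known. Promoter windows are from RefSeq (GRCm38.p6), with 1 window for each member except Gjb1, which has 4.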

Additional observations from a re-analysis of the deposited data

Results flagged for a closer look

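The change of the LP/alveolar to basal difference from adult to lactation was called by its interaction term for 4 of the genes named in the report. It was 10.03 on the log2 scale for Gjb6, with no UMI in basal cells of lactation (edgeR adjusted p = 0.031, lost in 7 of 17 alternatives). For Gjc1 it was 4.89 (adjusted p = 0.00952), on 2 UMIs each in basal cells of lactation and in adult LP cells, and the call was lost without A10 (0.0877), without F11 (0.0868), in cells with 1000 or more genes (0.102) and with classes from clusters (0.11). For Panx1 it was 3.33 (adjusted p = 0.000151), called in all 17 alternatives. For Cdh1 it was -1.06 (adjusted p = 0.0274), lost without F11 (0.127), without D6 (0.147) and in cells with 1000 or more genes (0.346). Of all genes tested, 15.7% were called in this comparison, and whether libraries overlap was not assessed for a change of a difference.

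The E18.5 skin library entered no comparison. Over all of its cells Gja1 was 105.9 CPM, Gjb2 0.81, Gjb5 1.03 and Gjb6 0.24, each above the limit that a count of 0 allows, and Gjb1 had no UMI.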

How the results depend on the processing

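No paired analysis was possible because the replicate labels of the stages (A10, H, F4, F11 and so on) are not shared between groups; the class fit already holds the library as a block. Stages with 2 libraries limit what can be called, and leaving 1 out assumes that the lone library varies like the other groups. Of 1640 values of single genes under an alternative, 1507 kept their direction and side of the threshold, 83 were weaker, 13 stronger and 37 reversed. Calls among the 5 connexins in basal cells numbered 2, with 4 without a low-count filter, 5 with classes from clusters and 0 to 2 with a library left out. The calls of Gjb6 in LP/alveolar cells and of Gjb1 from adult to lactation held in all 16 alternatives, as did those of Gja1 between LP/alveolar and basal cells in all 17. The cause of a lost call was not tested.

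In single libraries, basal Gja1 at postnatal day 5 was 145 CPM with a stricter gate and 103 with clusters, and in TEBs 102 with clusters. Gjb2 at postnatal day 5 was 5.53 in LP cells with clusters, and 62.4 (stricter gate) and 1.07 (clusters) in basal cells. Thinning to 1000 UMIs left out cells with fewer. The mean share with a UMI was then 18.6% for Gjb2 at day 12.5 and 7.45% for Gjb6 at day 18.5. It was 8.82% for Gjb1 in lactation and 17.3% for Gja1 in adult basal cells.

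Values that changed sign were uncalled, and are given on the log2 scale. Gja1 in LP/alveolar cells gave -0.55 from day 18.5 to lactation with clusters, and from adult to lactation 0.025 with milk genes kept and 0.0083 with no low-count filter. Basal Gjb2 from adult to lactation gave -5.26 in cells with 1000 or more genes and -4.99 with the stricter gate, and basal Gjb6, with no bound, 0.52 with DESeq2 and 2.15 with clusters. Gjb6 between adult LP/alveolar and basal cells gave 0.0057 with clusters and 0.97 with all 5 adult libraries, and Gja1 between adult ML and LP cells 0.083 with clusters. The change of the class difference from adult to lactation gave for Gjb1 -0.27 without TMM and -2.86 with clusters, for Gja1 -0.22 without TMM, -0.37 with clusters and -0.059 with all 5 adult libraries, and for Gjb2 -2.86 with clusters.

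With libraries left out in turn, Gja1 in LP/alveolar cells spanned -0.039 to 0.28 from day 12.5 to day 18.5 and -0.25 to 0.30 from adult to lactation, and Gjb2 -0.59 to 0.062 from day 12.5 to day 18.5. In basal cells Gjb6 spanned -0.079 to 0.53 from day 12.5 to day 18.5, Gja1 -0.22 to 0.46 from day 18.5 to lactation and -0.49 to 0.13 from adult to lactation, and Gjb2 -5.44 to 1.56 from adult to lactation. Between adult classes Gjb6 spanned -1.70 to 0.19 (LP/alveolar and basal) and Gja1 -1.07 to 0.17 (ML and LP), and the change of the class difference -0.87 to 2.27 for Gjb1, -0.28 to 0.63 for Gja1 and -1.10 to 6.96 for Gjb2.

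Over all genes, calls in LP/alveolar cells from adult to day 12.5 were 1542 (DESeq2 2539, 70 to 2512 with a library left out), from day 12.5 to day 18.5 126 (748, 0 to 935), from day 18.5 to lactation 632 (1076, 65 to 1375) and from adult to lactation 3914 (4499, 1488 to 5127). In basal cells they were 380 (734, 5 to 824), 0 (190, 0 to 312), 114 (281, 5 to 221) and 406 (768, 141 to 741). The highest of these counts with a library left out were those without P7, except 824 in basal cells from adult to day 12.5, where 693 were called without it. Without TMM the median of all genes moved from -0.08 to -0.40 in LP/alveolar cells from adult to lactation and from 0.17 to -0.30 between the classes in lactation, and the share of calls that were higher went from 51.5% to 36.3% and from 53.7% to 29.3% (DESeq2 41.7%). That share also went from 75% to 64.4% in LP/alveolar cells from day 18.5 to lactation, from 44.8% to 34.7% between the adult classes, from 52.2% to 34.4% between the classes at day 18.5 and from 57.6% to 32.2% for the change of the class difference. The calls of the 5 connexins in these comparisons kept their direction.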

Other observations

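Gja1 was not confined to the basal layer when cells outside the mammary epithelium were counted. In fibroblasts it ran from 28.0 CPM in pre-puberty to 367 in the adult C57BL/6 gland, with 237, 351 and 121 CPM in the adult FVB/NJ libraries and 186 and 275 in lactation. In endothelial cells it ran from 71.0 CPM after involution to 362 in the adult C57BL/6 gland, and the largest endothelial group, 651 cells of lactation D6, gave 219.9 CPM. Mural cells gave 15.6 to 146 CPM in groups of 23 to 107 cells, and immune cells 0 to 8.94 CPM. These values are from single libraries with few cells in most, and have no test.

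The cells gated as epidermal held Gja1, Gjb2 and Gjb5 at postnatal day 5, at 316, 19.5 and 21.3 CPM. In the epidermal clusters of that library, of 60, 202 and 44 cells, Gjb5 was uneven, at 101, 14.6 and 3.05 CPM. Gjb2 was 26.4, 23.3 and 29.0 CPM in them. At E18.5 the cells gated as epidermal in the mammary library held 207 CPM of Gja1, 18.7 of Gjb2 and 1.27 of Gjb5 (5 UMIs, interval 0.41 to 2.95). In the epidermal clusters of that library, of 153 and 54 cells, Gjb5 was 0.66 and 9.41 CPM. The embryonic rudiment itself held 1.51 CPM of Gjb2 (interval 1.16 to 1.93) beside 70.2 CPM of Gja1. A cluster of 544 embryonic cells given no class had 17.7 CPM of Gjb2 and 20.6 of Gjb6. The other embryonic clusters given no class had at most 1.41 CPM of Gjb2 and 0.66 of Gjb6.

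The Gjb6 to Gjb2 ratio of UMIs in LP/alveolar cells, compared only between libraries, was 31.8 and 32.4 Gjb6 per 100 Gjb2 at day 12.5, 61.7 and 41.1 at day 18.5 and 14.7 and 16.9 in lactation. No test was made of it.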
